A study of Mus musculus with 6 samples.

Results

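The genes described are 46 genes of the cell cycle and of β-cell proliferation. They were chosen by name, with earlier results of these data known. The 46 are cyclins, cyclin-dependent kinases, their inhibitors, and genes of DNA replication and mitosis. Of these, 44 had at least 1 probe set that the platform annotation assigned to that gene alone, with 45 such probe sets among them, and they were read within a table of 22180 genes. Ccnb1 and Ccne2 were not analysed here. RNA of whole pancreatic islets was hybridised to Affymetrix arrays, 3 for each of 2 genotypes, and all mice were 5 weeks old and on the C57BL/6J background. The wildtype islets came from littermates with floxed Sel1L alleles (Sel1L f/f). The Sel1L-deficient islets came from mice that in addition carried Ins1Cre, a Cre recombinase gene placed in the Ins1 locus and active in β cells. Sel1L works with the ubiquitin ligase HRD1, and together they clear misfolded proteins from the endoplasmic reticulum. Islets recovered overnight in culture before RNA extraction, and whole islets also hold α, δ and PP cells, vessels and other cells in which Ins1Cre does not act.

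Cells enter the cycle in G1, when D-type cyclins with CDK4 or CDK6, and later E-type cyclins with CDK2, phosphorylate the retinoblastoma protein and release E2F transcription factors. The INK4 and CIP/KIP inhibitors hold these kinases back. E2F then drives the genes of DNA replication, and a later program, run by the MuvB, B-MYB and FOXM1 complexes, drives the genes of mitosis. Mouse β cells divide in the first weeks of life and less with age. Cyclin D2 and CDK4 are known as their main G1 drivers, and the polycomb protein EZH2 represses the Cdkn2a locus in young β cells.

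Values are log2 RMA summaries, in which a difference of 1 is a doubling. Array medians over all probe sets lay between 3.08 and 3.16, and 10 of the 44 measured genes had a mean below the highest of them, where signal is hard to tell from background. Sel1l itself read 8.46, 8.56 and 8.76 on the wildtype arrays and 7.73, 7.65 and 7.68 on the Sel1L-deficient arrays, which follows the labels. All samples are labelled female, but 2 arrays, replicate 3 of each genotype, carried Y-linked transcripts. Uty, for example, read 7.18 and 7.04 on these arrays and 1.49 to 1.73 on the other 4. The same 2 arrays had the highest level of acinar enzyme genes, which come from exocrine pancreas carried over with islets. The mean log2 level of the 8 measured acinar markers, of 12 listed, was 7.72 and 7.68 on these arrays against 5.71 to 6.85 on the others. The class medians and the genes of the 46 described by array are therefore also given without these 2 arrays. β-cell markers were well above the array medians on all arrays, with Ins2 at 10.5 to 11.2, and their mean level over 11 of 12 listed markers was 9.35 to 9.58 in wildtype and 8.64 to 8.78 in Sel1L-deficient islets.

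None of the 44 cell cycle genes passed the threshold of an adjusted p under 0.05 in the comparison of Sel1L-deficient with wildtype islets (limma with Benjamini-Hochberg adjustment over all genes, 0 higher and 0 lower), where 0.243% of all genes did (0.0902% higher and 0.153% lower). At an unadjusted p under 0.05 there were 8, of which 7 were lower and 1 was higher, a share of 18.2% against 9.48% of all genes; among all genes 5.04% were lower and 4.45% higher at that level. The 7 were Ccna2, Aurka, Foxm1 and Kif23 of mitosis, Gmnn of replication, and Ccnd2 and Cdkn2c of G1, and the 1 was Cdkn1a. The share was 9.09% against 8.25% of all genes without Sel1L-deficient replicate 2 (4 genes), 27.3% against 8.12% without wildtype replicate 3 (12 genes), and 16.1% against 14.3% among genes above the median level (5 of 31). G1 regulators had a median log2 difference of 0.02, with 7 genes higher and 7 lower. This class pools drivers with their inhibitors, so opposite differences can cancel in its median. The D-type cyclins, Cdk4, Cdk6 and E2f2 were lower, and Ccne1, Cdk2 and E2f1 higher. Of the inhibitors, Cdkn1a, Cdkn1b, Cdkn2a and Cdkn2b were higher and Cdkn2c lower. Replication genes had a median of -0.23, with 11 of 14 lower, and mitosis genes a median of -0.21, with 12 of 16 lower. Over all genes the median difference was 0.00044 and 49.9% were lower. These medians describe the lists and were not tested. In bulk islets, fewer cells of a type and less RNA per cell cannot be told apart. Without the 2 arrays with Y-linked transcripts the medians were 0.05, -0.33 and -0.23, with 13 of 14 replication genes and 12 of 16 mitosis genes lower. For mitosis genes, leaving out wildtype replicate 3 gave a median of -0.089, and leaving out Sel1L-deficient replicate 3 gave -0.36. The replication median ran from -0.35 without wildtype replicate 3 to -0.17 without wildtype replicate 1.

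**Figure D1:**
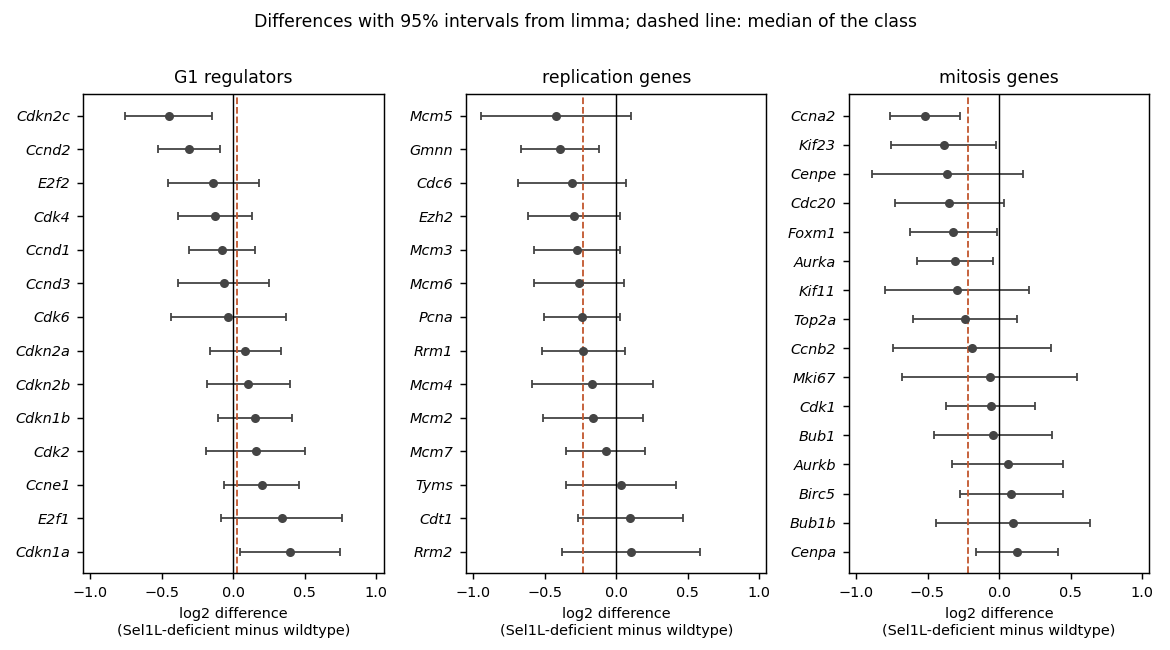
Log2 differences, Sel1L-deficient minus wildtype, of the 44 measured genes by class, with 95% intervals from limma as bars (3 arrays per genotype) and the median of each class as a dashed line. The intervals of Cdkn2c, Ccnd2, Gmnn, Ccna2, Kif23, Foxm1 and Aurka lie below 0 and that of Cdkn1a above 0; the medians are 0.02, -0.23 and -0.21.

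Cyclin D2, encoded by Ccnd2, was lower on every Sel1L-deficient array than on any wildtype array. Its log2 values were 10.36, 10.37 and 10.43 in wildtype and 10.11, 10.06 and 10.06 in Sel1L-deficient islets. The groups did not overlap, and the SD was 0.04 in wildtype and 0.03 in Sel1L-deficient islets. The difference was -0.31 ± 0.09 (SE; 95% interval -0.52 to -0.09), 1.24-fold lower (limma adjusted p = 0.349). It stayed between -0.32 and -0.28 when any single array was left out, and was -0.28 on the arrays without Y-linked transcripts. With a prior that follows the mean level (limma, trend and robust) its adjusted p was 0.0511, and over the alternatives it ranged up to 0.643. The other D-type cyclins differed less. Ccnd1 read 7.76, 7.75 and 7.63 against 7.68, 7.56 and 7.65, so the groups overlapped, with a difference of -0.08 (95% interval -0.31 to 0.15) on all arrays and -0.13 without the Y-linked ones. Ccnd3 differed by -0.07 (95% interval -0.38 to 0.25).

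The kinases that partner these cyclins did not separate the genotypes. Cdk4 read 8.62, 8.32 and 8.38 in wildtype and 8.33, 8.34 and 8.27 in Sel1L-deficient islets, a difference of -0.13 (95% interval -0.38 to 0.13). Wildtype replicate 1 was the high array, and without it the difference was -0.04. It was -0.13 without the Y-linked arrays. Cdk6 differed by -0.03 (95% interval -0.44 to 0.37) and Cdk2 by 0.16 (95% interval -0.19 to 0.50). Ccne1, the cyclin E gene, read 3.87, 3.94 and 3.64 in wildtype and 3.99, 3.97 and 4.08 in Sel1L-deficient islets, so it was higher on all Sel1L-deficient arrays, by 0.20 ± 0.11 (SE; limma adjusted p = 0.662). Its range was 0.08 to 0.26 over the leave-out fits and the arrays without Y-linked transcripts. E2f1, a transcription factor released at the end of G1, read 4.12, 4.17 and 3.84 against 4.16, 4.80 and 4.18. Sel1L-deficient replicate 2 stood above the rest, and the difference of 0.34 (95% interval -0.09 to 0.76) was 0.13 without that array and 0.34 on the arrays without Y-linked transcripts. E2f2 differed by -0.14, with both means below the array medians.

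The inhibitors differed in direction. Cdkn1a, a CIP/KIP inhibitor and p53 target, read 7.93, 8.19 and 8.37 in wildtype and 8.58, 8.75 and 8.33 in Sel1L-deficient islets. Only the 2 arrays with Y-linked transcripts kept the groups from separating, since wildtype replicate 3 was above Sel1L-deficient replicate 3. The difference was 0.39 ± 0.15 (SE; 95% interval 0.04 to 0.74; limma adjusted p = 0.461), and 0.61 (95% interval 0.23 to 0.98; limma adjusted p = 0.408) on the arrays without those transcripts. Without wildtype replicate 1, the lowest array, the Cdkn1a difference was 0.28, and without Sel1L-deficient replicate 3 it was 0.50. Cdkn2c, an INK4 inhibitor of CDK4 and CDK6, read 3.85, 3.91 and 4.21 against 3.46, 3.45 and 3.70, lower on every Sel1L-deficient array. Its difference was -0.45 ± 0.13 (SE; 95% interval -0.76 to -0.15; 1.37-fold lower, limma adjusted p = 0.338), with a range of -0.53 to -0.34 when single arrays were left out and -0.42 on the arrays without Y-linked transcripts.

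The other inhibitors showed smaller differences. Cdkn1b, the CIP/KIP inhibitor of CDK2 that marks quiescent cells, read 7.14, 6.92 and 7.22 in wildtype and 7.21, 7.24 and 7.28 in Sel1L-deficient islets, and wildtype replicate 2 was the low array. The difference was 0.15 (95% interval -0.10 to 0.41) and 0.07 without that array, and 0.20 on the arrays without Y-linked transcripts. Cdkn2a, the locus of INK4A and ARF, read 2.43, 2.35 and 2.36 against 2.43, 2.62 and 2.35, below the array medians throughout. Its difference was 0.08 (95% interval -0.17 to 0.33), and 0.13 without the Y-linked arrays. Cdkn2b, its INK4 neighbour, differed by 0.11 (95% interval -0.19 to 0.40). Ezh2, which represses this locus, was lower on every Sel1L-deficient array, with 5.76, 5.38 and 5.37 in wildtype and 5.04, 5.31 and 5.27 in Sel1L-deficient islets. The difference was -0.30 ± 0.14 (SE; limma adjusted p = 0.572), -0.17 without wildtype replicate 1, the highest array, and -0.39 without the Y-linked arrays.

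**Figure D2:**
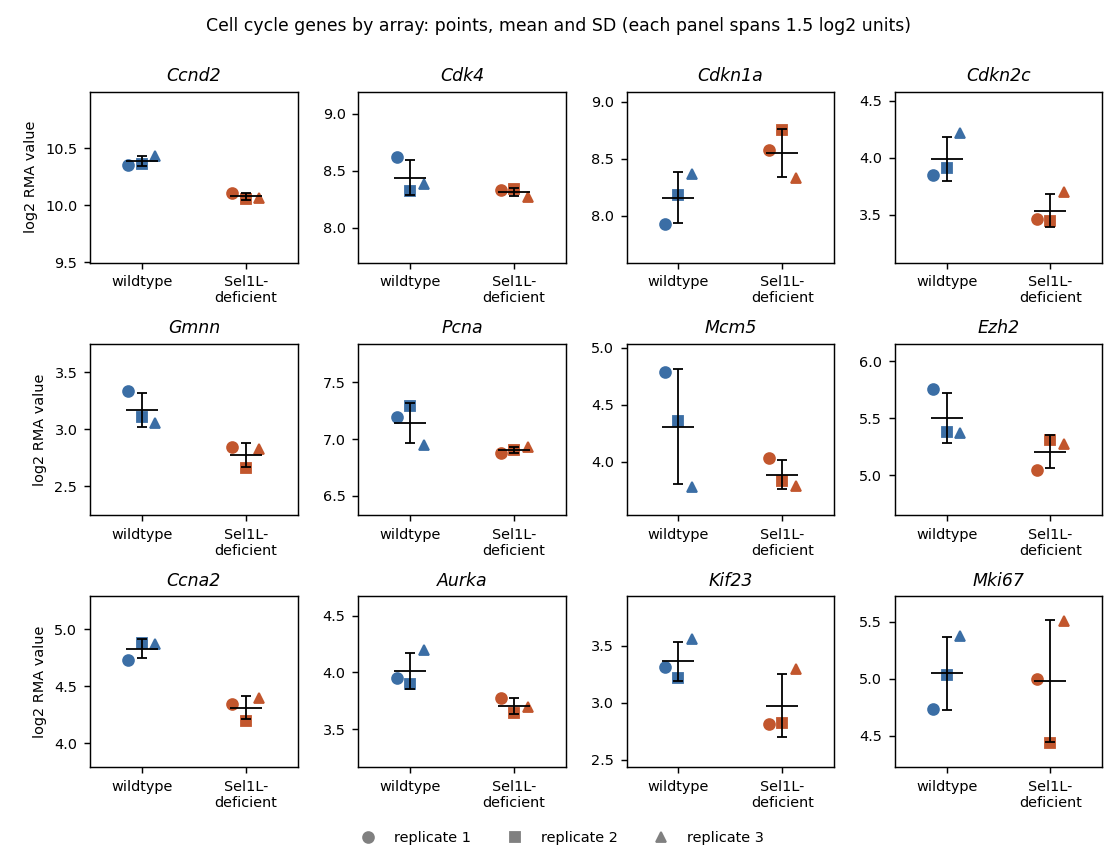
Log2 RMA values of 12 of the genes on each array, as circles (replicate 1), squares (replicate 2) and triangles (replicate 3), with the mean and SD of each genotype (n = 3); every panel spans the same 1.5 log2 units. Ccnd2, Cdkn2c, Gmnn, Pcna, Ezh2, Ccna2 and Aurka do not overlap between genotypes, whereas Cdk4, Cdkn1a, Mcm5, Kif23 and Mki67 do.

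Among all 44 genes, 8 had groups that did not overlap, 7 lower and 1 higher in Sel1L-deficient islets, which is 18.2% of them against 15.1% of all genes (7.84% lower and 7.22% higher). They were Ccnd2, Cdkn2c, Gmnn, Pcna, Ezh2, Ccna2, Aurka and, on the higher side, Ccne1. The total is close to the background, and the lower ones make up most of it.

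The genes of DNA replication were mostly lower in Sel1L-deficient islets without passing the threshold. Gmnn encodes geminin, which blocks relicensing of origins by binding CDT1. It read 3.34, 3.11 and 3.06 in wildtype and 2.84, 2.66 and 2.83 in Sel1L-deficient islets, lower on every array by -0.39 ± 0.12 (SE; 95% interval -0.66 to -0.12; limma adjusted p = 0.345). Without the Y-linked arrays the difference was -0.47. Its mean lay below the array medians. Pcna, the sliding clamp of DNA polymerases, read 7.19, 7.29 and 6.95 against 6.88, 6.90 and 6.93. The Sel1L-deficient arrays had an SD of 0.02, and wildtype replicate 3 lay just above them. The difference was -0.24 ± 0.12 (SE; limma adjusted p = 0.577), -0.34 without wildtype replicate 3, -0.17 without wildtype replicate 2 and -0.35 on the arrays without Y-linked transcripts.

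All 6 subunits of the MCM helicase, which unwinds DNA at the fork, had differences below 0, from -0.42 for Mcm5 to -0.07 for Mcm7. On all arrays each overlapped between genotypes. Mcm3 read 4.65, 4.68 and 4.34 in wildtype and 4.42, 4.25 and 4.16 in Sel1L-deficient islets (-0.27 ± 0.13 SE; limma adjusted p = 0.573). Mcm6 read 5.76, 5.93 and 5.53 against 5.65, 5.41 and 5.38 (-0.26 ± 0.14 SE; limma adjusted p = 0.617). For Mcm5 the values were 4.79, 4.36 and 3.78 against 4.03, 3.83 and 3.79. Wildtype replicates 1 and 2 were high and wildtype replicate 3 lay with the Sel1L-deficient arrays, so the difference of -0.42 (95% interval -0.95 to 0.10) was -0.69 without wildtype replicate 3 and -0.18 without wildtype replicate 1. On the arrays without Y-linked transcripts Mcm5 differed by -0.64 (95% interval -1.09 to -0.19; limma adjusted p = 0.459) and Mcm3 and Mcm6 each by -0.32. Mcm4 differed by -0.17 on all arrays, by -0.38 without the Y-linked ones and by -0.020 without wildtype replicate 1.

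The remaining replication genes had wide intervals. The origin loader Cdc6 differed by -0.31 (95% interval -0.69 to 0.07) and its partner Cdt1 by 0.10 (95% interval -0.27 to 0.47). The mean of Cdc6 over all arrays lay below the array medians. The ribonucleotide reductase subunits Rrm1 and Rrm2 differed by -0.23 and 0.10, and the other probe set of Rrm2 by 0.15, both below the array medians. Tyms, thymidylate synthase, differed by 0.03 (95% interval -0.35 to 0.42). The annotation also names a Tyms pseudogene, so the Tyms value is uncertain.

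The mitosis gene with the clearest separation was Ccna2, encoding cyclin A2, which acts from S phase into mitosis. It read 4.73, 4.88 and 4.88 in wildtype and 4.35, 4.20 and 4.40 in Sel1L-deficient islets. The groups did not overlap, and the SD was 0.08 in wildtype and 0.10 in Sel1L-deficient islets. The difference was -0.52 ± 0.11 (SE; 95% interval -0.76 to -0.27), 1.43-fold lower, and had the smallest adjusted p of the 44 genes (limma adjusted p = 0.174). It lay between -0.56 and -0.46 when single arrays were left out and was -0.54 on the arrays without Y-linked transcripts. Among the alternatives its lowest adjusted p was 0.0874, in a fit over brighter genes only, and its highest 0.417.

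Aurka, the kinase of the spindle poles, read 3.95, 3.90 and 4.19 against 3.78, 3.64 and 3.70. It was lower on every Sel1L-deficient array, by -0.31 ± 0.12 (SE; limma adjusted p = 0.443). Foxm1, the transcription factor of the mitotic program, read 2.96, 3.22 and 3.34 against 2.73, 2.84 and 2.99. The groups overlapped by a small margin (-0.32 ± 0.13 SE, limma adjusted p = 0.493). The mean of Foxm1 over all arrays lay below the highest array median, where signal is hard to tell from background. Kif23, a kinesin of cytokinesis, read 3.31, 3.22 and 3.55 against 2.81, 2.82 and 3.29. Sel1L-deficient replicate 3 lay among the wildtype arrays. The difference was -0.39 (95% interval -0.75 to -0.02, limma adjusted p = 0.493). It was -0.54 without that array and -0.29 without wildtype replicate 3. Cdc20, an activator of the anaphase-promoting complex, read 4.26, 3.77 and 4.25 against 3.73, 3.55 and 3.95 (-0.35 ± 0.17 SE; limma adjusted p = 0.573). On the arrays without Y-linked transcripts the differences were -0.22 for Aurka, -0.30 for Foxm1, -0.45 for Kif23 and -0.37 for Cdc20.

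Among proliferation markers, Mki67 and Top2a overlapped between the genotypes on all arrays, unlike Pcna and Ccna2 above. Mki67, which encodes the Ki-67 antigen of cycling cells, read 4.73, 5.03 and 5.37 in wildtype and 5.00, 4.43 and 5.51 in Sel1L-deficient islets. The spread within each genotype was larger than the difference of -0.07 (95% interval -0.68 to 0.55), which ran from -0.33 without Sel1L-deficient replicate 3 to 0.21 without Sel1L-deficient replicate 2. Top2a, the topoisomerase that untangles chromosomes, read 4.05, 4.18 and 4.37 against 3.81, 3.79 and 4.29. Again replicate 3 was the highest array of both genotypes, and the difference was -0.24 (95% interval -0.60 to 0.13), -0.40 without Sel1L-deficient replicate 3 and -0.15 without Sel1L-deficient replicate 2. On the arrays without Y-linked transcripts Mki67 differed by -0.16 and Top2a by -0.32. Cenpe and Kif11, motor proteins of the spindle, differed by -0.36 and -0.29, and Ccnb2, a B-type cyclin, by -0.19. Without wildtype replicate 3 these were -0.16, -0.18 and 0.0015, and without Sel1L-deficient replicate 3 they were -0.54, -0.53 and -0.44.

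The kinase Cdk1, which drives entry into mitosis, differed by -0.06 (95% interval -0.37 to 0.25) and the checkpoint kinase Bub1 by -0.04, both with means below the highest array median. Differences above 0 were small: 0.06 for Aurkb and 0.09 for Birc5, parts of the chromosomal passenger complex, 0.10 for the checkpoint gene Bub1b and 0.12 for Cenpa, the histone variant of centromeres. The intervals of these 4 genes all included 0. Means of Aurkb and Birc5 lay below the array medians.

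The classes were also followed from array to array. For every gene the deviation from its own mean over the 6 arrays was taken, and the median over each class was compared array by array. The mitosis class stood at -0.04, 0.03 and 0.33 on the wildtype arrays and at -0.21, -0.24 and 0.12 on the Sel1L-deficient arrays, so replicate 3 was the highest array in both genotypes. The replication class stood at 0.23, 0.20 and -0.09 in wildtype and at 0.0064, -0.14 and -0.12 in Sel1L-deficient islets, so replicate 3 was the low array in wildtype but not in Sel1L-deficient islets, where replicate 2 was lowest for both classes. These patterns were not tested. The median of G1 regulators, which pools drivers and inhibitors, stayed between -0.02 and 0.01 on all arrays. Replicate 3 was the highest of its genotype in both genotypes for 9 of 16 mitosis genes and for 0 of 14 replication genes, against 11.5% of all genes. It was the lowest in both for 6 of 14 replication genes, which were Mcm2 to Mcm7, and for 0 of 16 mitosis genes, against 11.1% of all genes. The 9 mitosis genes were Mki67, Top2a, Ccnb2, Foxm1, Birc5, Cenpa, Cenpe, Kif11 and Kif23. These are the arrays with Y-linked transcripts and the highest acinar marker level, 7 of the 8 measured acinar markers also being highest on replicate 3 in both genotypes. The part of sex and of acinar carry-over in this pattern was not tested. The replicate-3 counts were made after the values had been seen.

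**Figure D3:**
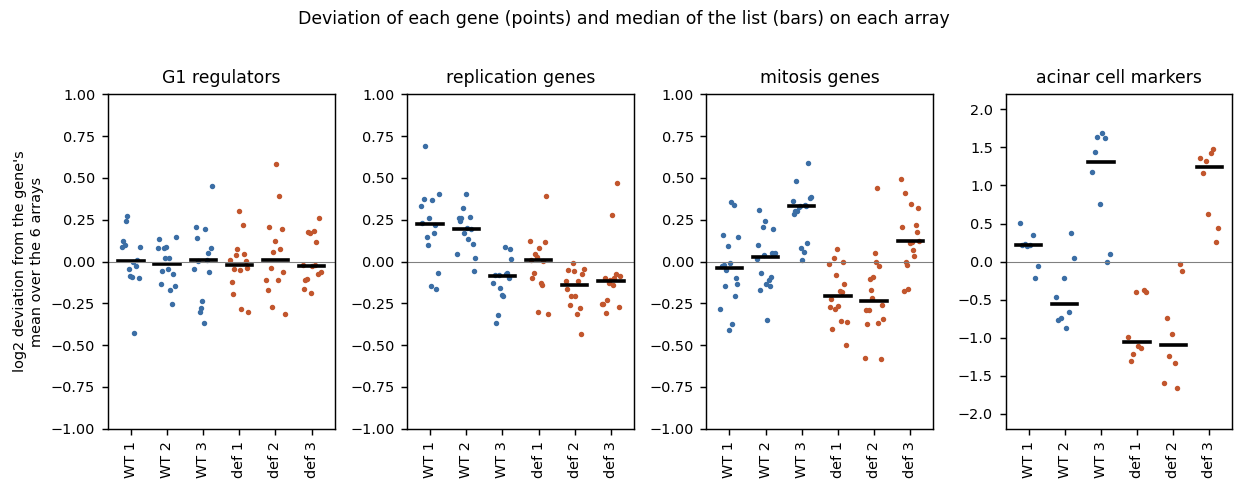
Deviation of each gene's log2 value from its mean over the 6 arrays (points) and the median of the list (bars) on each wildtype (WT) and Sel1L-deficient (def) array, for the 3 classes and for acinar markers, whose axis is wider. On replicate 3 of both genotypes the mitosis median is highest, at 0.33 and 0.12, as is the acinar median, at 1.31 and 1.25.

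Promoter letters were counted in each class. Windows of 300 bases, from 250 before to 50 after each gene's start, came from RefSeq on build GRCm38.p6 and held 38 of the 46 genes (Aurkb, Ccna2, Ccnd1, Ccnd2, Ccne2, Foxm1, Gmnn and Mcm4 had no entry). The cell cycle genes homology region (CHR, searched as TTTGAA), which the MuvB complexes bind, was found in 10 of 14 windows of mitosis genes, 1 of 12 of replication genes and 2 of 12 of G1 regulators, against 20.2% of all 27025 genes with a window. The E2F site (TTTCCCGC, TTTCGCGC, TTTGGCGC or TTTGCCGC) was found in 7 of 12 replication genes, 1 of 14 mitosis genes and 3 of 12 G1 regulators, against 2.6% of all genes. The CCAAT box (CCAAT), bound by NF-Y, was found in 13 of 14 mitosis genes, 9 of 12 replication genes and 6 of 12 G1 regulators, against 41.1%. Both strands were searched, a gene with several starts counted if any window matched, and E2F matches on opposite strands can share bases. A match describes letters and shows no binding. Outside the 46 genes, CHR was in 31 of 42 windows of other mitosis genes and 6 of 31 of other replication genes.

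The 150 bases before the start are shown for 5 mitosis and 3 replication genes, 5′ to 3′ on the strand of the gene, with CHR, CCAAT and E2F matches on either strand in capitals. They were picked after the matches had been seen, to show stretches with and without each motif. Mki67, Top2a, Kif11 and Cenpe were highest on replicate 3 in both genotypes, Cdc20 was not, and Mcm5, Mcm6 and Mcm2 were lowest there.
Mki67 (chr7:135716380-135716529, minus strand): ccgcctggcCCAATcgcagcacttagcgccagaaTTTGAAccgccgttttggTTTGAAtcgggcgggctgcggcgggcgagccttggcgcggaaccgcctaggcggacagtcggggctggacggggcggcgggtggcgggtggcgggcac
Top2a (chr11:99024190-99024339, minus strand): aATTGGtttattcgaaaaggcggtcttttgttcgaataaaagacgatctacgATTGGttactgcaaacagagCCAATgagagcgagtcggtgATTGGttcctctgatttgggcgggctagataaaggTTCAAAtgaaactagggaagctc
Kif11 (chr19:37376232-37376381, plus strand): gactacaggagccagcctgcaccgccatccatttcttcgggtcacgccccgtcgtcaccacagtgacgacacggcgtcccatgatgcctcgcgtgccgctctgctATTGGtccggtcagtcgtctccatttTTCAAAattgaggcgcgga
Cdc20 (chr4:118437344-118437493, minus strand): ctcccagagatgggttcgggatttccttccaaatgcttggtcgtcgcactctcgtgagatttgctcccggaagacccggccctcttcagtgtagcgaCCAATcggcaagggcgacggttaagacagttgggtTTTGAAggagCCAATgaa
Cenpe (chr3:135212413-135212562, plus strand): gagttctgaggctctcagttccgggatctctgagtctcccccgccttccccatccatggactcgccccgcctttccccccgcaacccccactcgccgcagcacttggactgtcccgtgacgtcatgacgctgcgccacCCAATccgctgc
Mcm5 (chr8:75109359-75109508, plus strand): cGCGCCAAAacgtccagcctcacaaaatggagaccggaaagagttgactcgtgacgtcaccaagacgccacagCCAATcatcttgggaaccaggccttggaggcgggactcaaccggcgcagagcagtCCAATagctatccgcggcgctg
Mcm6 (chr1:128359706-128359855, minus strand): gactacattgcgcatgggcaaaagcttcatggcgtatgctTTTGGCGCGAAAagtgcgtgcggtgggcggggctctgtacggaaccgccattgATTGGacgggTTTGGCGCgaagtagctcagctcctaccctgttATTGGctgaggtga
Mcm2 (chr6:88898781-88898930, minus strand): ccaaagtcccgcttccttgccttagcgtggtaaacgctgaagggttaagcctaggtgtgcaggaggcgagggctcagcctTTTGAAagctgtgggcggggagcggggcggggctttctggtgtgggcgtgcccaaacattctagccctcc
CHR letters occur in the stretches of Mki67, Top2a, Kif11, Cdc20 and Mcm2, and E2F letters in those of Mcm5 and Mcm6. Cenpe holds neither, and Mcm2 holds CHR and no E2F letters. Over all genes with a window, these 150 bases held CHR in 5 of 14 mitosis and 1 of 12 replication genes, and E2F letters in 1 of 14 and 3 of 12.

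Other genes of the cycle, from lists that hold none of the 46, are given next, and none passed the threshold. Of 37 measured genes of replication (40 listed) 0 rose and 0 fell, 26 had differences below 0, and the median was -0.08. Gins3, a subunit of the GINS helicase complex, read 4.72, 4.30 and 4.41 in wildtype and 3.41, 3.85 and 3.18 in Sel1L-deficient islets. The groups did not overlap, and the difference of -0.996 ± 0.19 (SE) was 1.99-fold (limma adjusted p = 0.131). Mcm10 differed by -0.33 and Dnmt1, the maintenance DNA methyltransferase, by -0.41, both without overlap. The mean of Mcm10 lay below the array medians. Gins2, of the same complex as Gins3, was higher by 0.24. Of 49 measured genes of mitosis (52 listed) 0 rose and 0 fell, 37 were below 0, and the median was -0.13. Spc25, a kinetochore protein, differed by -0.59, the kinesin Kif18b by -0.57 and Ckap2 by -0.49, each without overlap. The mean of Kif18b over all arrays also lay below the array medians. In this list replicate 3 was the highest in both genotypes for 21 genes and the lowest in both for 0, while in the replication list it was highest for 1 and lowest for 6.

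Of 24 further G1 genes, pocket proteins, E2F partners and MuvB subunits among them, 0 rose and 0 fell and the median was -0.01. Rbl2, a pocket protein of quiescent cells, differed by 0.27 and the repressor E2f6 by -0.27, with Mnat1, a subunit of the CDK-activating kinase, at 0.18. Regulators of β-cell proliferation had 0 of 28 measured genes (31 listed) past the threshold and a median of -0.04. Nfatc1, a calcineurin target, was higher on every Sel1L-deficient array, by 0.46 ± 0.14 (SE; limma adjusted p = 0.348). Myc, the growth transcription factor, differed by 0.44 and Nr4a1, an orphan nuclear receptor, by -0.67, both with overlap. Targets of p53 had 0 of 15 measured genes (17 listed) past the threshold and a median of 0.03, with 9 genes above 0 and 6 below. Trp53inp1 had the smallest p of the list and read 6.80, 6.85 and 6.78 in wildtype and 7.25, 7.17 and 7.39 in Sel1L-deficient islets (0.45 ± 0.10 SE; limma adjusted p = 0.211). Plk2 differed by 0.19 and Phlda3 by 0.27. Of a list of 24 histone and chromatin genes 1 was measured, Hmgb2, a high-mobility-group protein and not a histone, with a difference of -0.07.

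**Figure D4:**
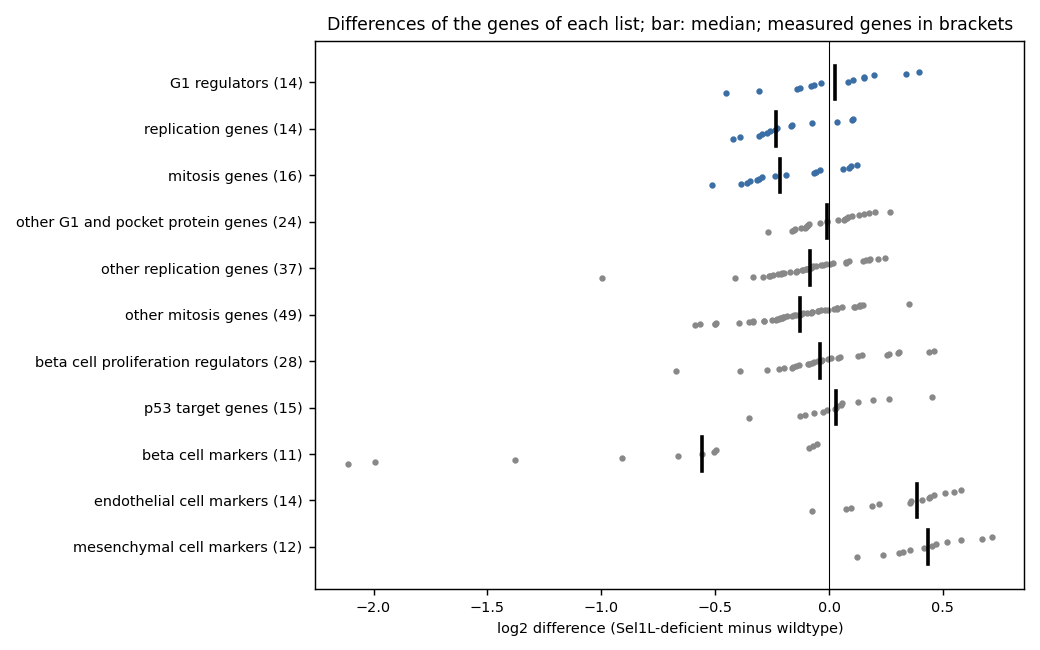
Log2 differences, Sel1L-deficient minus wildtype, of each gene (points) in the 3 classes (blue) and in other lists (grey), with the median as a bar and the number of measured genes in brackets. Medians of the replication and mitosis classes are -0.23 and -0.21, and those of the further genes of replication and mitosis -0.08 and -0.13. Medians of the G1 lists, which pool drivers and inhibitors, lie near 0. Those of endothelial and mesenchymal markers lie above 0.

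No marker of the other cell types passed the threshold (limma, 0 higher and 0 lower in each list), and their levels are given as a description. Endothelial markers had a median difference of 0.38 over 14 genes, 13 of them above 0, and their mean level was 5.55 to 5.90 in wildtype and 5.96 to 6.12 in Sel1L-deficient islets. Mesenchymal markers had a median of 0.43 over 12 genes, 12 of them above 0, with mean levels of 4.37 to 5.03 and 5.02 to 5.31. Leukocyte markers had a median of -0.17 over 14 genes, 10 of them below 0, with mean levels of 3.68 to 4.07 and 3.65 to 3.78. Acinar markers had a median of -0.64 over 8 genes, with mean levels of 6.26 to 7.72 and 5.71 to 7.68. On the arrays without Y-linked transcripts the acinar median was -0.82 and the endothelial median 0.42. Duct markers had a median of -0.12 over 5 of 7 genes (mean levels 4.36 to 4.60 and 4.08 to 4.52), markers of α, δ and PP cells 0.15 over 7 of 9 genes (10.2 to 10.3 and 10.3 to 10.4), and Schwann cell markers -0.0031 over 4 of 6 genes (2.50 to 2.59 and 2.46 to 2.70). The only list with members past the threshold was that of β cells, where 4 of 11 fell: Mafa, Ucn3, Slc2a2 and G6pc2. Of the 11, 0 passed on the arrays without Y-linked transcripts, although all 11 were below 0 there. Without single arrays 1 to 3 passed: 1 without wildtype replicate 1 or 3 or Sel1L-deficient replicate 1 or 2, 2 when wildtype replicate 2 was left out, and 3 when Sel1L-deficient replicate 3 was. How much each cell type contributed to the cell cycle values was not tested.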

How the data were processed

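Islet RNA of 3 wildtype and 3 Sel1L-deficient samples was labelled for Affymetrix arrays. The authors deposited log2 values summarised with RMA, per the submitters' processing notes. The sources used here give neither its version nor a genome build, and the log2 scale was read from the values. RMA can compress large ratios, and the number of arrays limits the precision. Nothing in the labels says how many mice an array pooled, and p-values reflect only the variation among these 6 arrays, which may be technical.

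Of 41345 probe sets, 23521 carried 1 gene symbol in the platform annotation, 1814 several and 16010 none. The probe set with the highest mean over the 6 arrays stood for each of 22180 genes. Sel1L-deficient minus wildtype differences were fitted on all arrays (R 4.3.3; limma 3.58.1, functions lmFit and eBayes, two-sided), without covariates or a filter on low values. P-values were adjusted by Benjamini-Hochberg over all genes, with a threshold of 0.05. SD is over 3 arrays, SE is from limma, and folds are 2 raised to the difference. The procedure was tested on simulated data.

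Every gene of the 46 could be named, and all array values are given for the 5 genes of each class with the smallest p and for 11 genes of interest. Mcm5, Gins3 and Trp53inp1 values were added after the data had been seen. Of each pathway list, the genes past the threshold or otherwise the 3 with the smallest p were named. Gins2, Ndc80, Nuf2 and Spc24 were added after the data had been seen. Marker lists are given by counts and levels. Members, lists and tests were chosen with earlier results of these data known. Alternatives changed the probe set rule, filter, normalization, prior, replicate numbers, Y-linked arrays and single arrays.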

Additional observations from a re-analysis of the deposited data

How the results depend on the processing

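None of the 44 genes passed the threshold under any of the 14 alternatives (limma). Of 603 values of single genes, 582 kept their direction and 21 changed sign, in 12 genes. On the arrays without Y-linked transcripts Ccnd3 became 0.025, Cdt1 -0.092, Rrm2 -0.13, Cdk1 0.064 and Birc5 -0.038. Leaving out single arrays gave -0.19 to 0.013 for Ccnd3, -0.19 to 0.095 for Cdk6, -0.013 to 0.23 for Cdt1, -0.11 to 0.35 for Rrm2, -0.15 to 0.18 for Tyms, -0.33 to 0.21 for Mki67, -0.44 to 0.0015 for Ccnb2, -0.15 to 0.078 for Cdk1, -0.13 to 0.20 for Aurkb, -0.065 to 0.24 for Birc5, -0.23 to 0.13 for Bub1 and -0.10 to 0.30 for Bub1b. The cause of these changes was not tested.

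The count of genes at an unadjusted p under 0.05 was 5 of 31 among brighter genes, where 14.3% of all did, and 4 to 12 without single arrays. Without Sel1L-deficient replicate 2 it was 4 (9.09% against 8.25% of all genes) and without wildtype replicate 3 it was 12 (27.3% against 8.12%). The G1 median was 0.11 among brighter genes, 0.010 after quantile normalization, 0.047 without the Y-linked arrays and -0.013 to 0.089 without single arrays. The replication median was -0.35 to -0.17 and the mitosis median -0.36 to -0.09 without single arrays, the extremes coming without wildtype replicates 3 and 1 for replication and without Sel1L-deficient and wildtype replicate 3 for mitosis. Over all genes, 54 passed in the reported fit, 133 with trend and robust, 1 on the arrays without Y-linked transcripts and 4 to 29 without single arrays. The arrays share replicate numbers. Deviations of same-numbered arrays correlated at 0.10, 0.07 and 0.21 over all genes, not all above 0.1, so the numbers were not taken as pairs, although each array correlated best with its own number. With a replicate block 36 genes passed over all genes and 0 of the 44 passed. In that fit 12 of the 44 were at an unadjusted p under 0.05, a share of 27.3% against 9.73% of all genes.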
